A study of Saccharomyces cerevisiae with 24 samples.

Results

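A set of 69 probes, most of them yeast genes, was chosen for a lower array signal in the respiratory strain V5.TM6*P than in its parent V5 along a glucose-consuming culture. The set held probes of 3 deleted hexose transporter genes, both enolase genes of glycolysis, permeases for amino acids and metals, thiol peroxidase and thioredoxin genes, 4 genes of cytosolic ribosomal proteins and 6 genes of the secretory pathway, cell wall and lipids. The members were chosen by their values in the table of processed intensities that the authors deposited. A row of that table was kept where log2 intensity, relative to the array median, was lower in V5.TM6*P at each of 6 sampling points and by at least 0.8 on the mean, with a V5 mean at or above the median. Of 7477 rows, 96 met these thresholds. The 4 rows of PDC1, PDC5 and CDC19 and the 16 rows on a print plate that holds mostly chromosome X genes were left out. The 76 rows left are spots of 69 probes, out of 6330 probes in all. The strain difference is therefore what selected them, and the members' values of it below are a description with no test.

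V5 is a wine yeast (MATa ura3 gal) that carries its own hexose transporter genes. V5.TM6*P was made from V5 by deleting HXT1 to HXT7 and integrating TM6*, a chimera that joins parts of the HXT1 and HXT7 proteins, and both strains were made prototrophic with URA3. Whether more than 1 transformant was used is not given. RNA of V5 was taken at 38.4, 35.0, 25.5, 24.4, 10.5 and 7.4 g/L residual glucose whereas RNA of V5.TM6*P came first at 36.5 and 34.8 g/L, then at 26.3 and 25.1 g/L, and last at 13.5 g/L and at 5.6 g/L. The bioreactors were aerated and started at 5% glucose, and the labels name both a defined minimal medium and YNB-CSM, which supplies amino acids. Each of these 12 RNA samples was hybridized to 2 filter arrays, and the 6 samples of a strain are not assigned by the labels to the cultures, which were run at least in duplicate, so they may not be 6 separate cultures.

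As background, yeast on abundant glucose ferments it to ethanol even with oxygen present, and glucose signalling holds glycolytic and ribosomal genes high while respiratory genes stay repressed. Hexose transporters set how fast glucose enters the cell. HXT1 and HXT3 encode low-affinity carriers used at high glucose, HXT2, HXT4, HXT6 and HXT7 carriers of higher affinity. A strain with slow uptake respires its sugar.

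All levels below are log2 intensity from the scanner files, with the local background subtracted and the array median set to 0, averaged over the spots of a probe and the 2 arrays of an RNA sample, so a difference of 1 is a doubling. The SD between the 2 arrays of an RNA sample was 0.368 for the members (median over probes) and the SD between the 6 RNA samples of a strain was 0.33. Median net intensity ran from 11.4 to 22.9 over a median background of 12.1 to 31.5 across the 24 arrays, and precision is limited by having 2 arrays per sample. By their image names, 3 V5.TM6*P arrays carry another array code than the rest, 2 hybridized with the sample at 36.5 g/L and 1 with that at 34.8 g/L. This code, held by 1 strain only, is taken here as another print lot. The sample titles give all 24 arrays 1 code, which is the image code of these 3, so the lot is inferred and not recorded.

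Over the members the median difference was -0.97 (V5.TM6*P minus V5), which is 1.95-fold lower, against a median of -0.05 over all 6330 probes. With normexp background correction, which adds an offset to the intensities before the log, and quantile normalization it was -0.44. It ran from -0.55 for the unnamed probe at row 1316 to -2.18 for HXT4, and 33 members were lower by 1 or more. On these scanner values 62 of the 69 were lower at all 6 points and the other 7 at 5 points. Of all probes, 9.95% were lower at all 6 points. In 43 members the highest V5.TM6*P sample lay below the lowest V5 sample, which 3.24% of all probes did. Both counts were all but fixed by the choice of members on the same arrays. The median difference was -1.21 at point 1, -1.03 at point 2, -0.87 at point 3, -0.94 at point 4, -1.16 at point 5 and -0.85 at point 6. The rule asked for a lower value at each point, so nothing is read from the sign of these medians.

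The members spanned a wide range of signal. Their mean level in V5 ran from 0.03 for SDD3 to 6.93 for YDR034C-A, with a median of 1.98, and the median in V5.TM6*P was 1.04. In 18 members the V5.TM6*P mean lay below the array median, and in none did the V5 mean. Each of the dimmer ones therefore rests on signal close to background: for BAP3 the spot was 1.9 times its local background in V5 and 1.35 times in V5.TM6*P, whereas for ENO2 the ratios were 49.6 and 30.2.

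**Figure D1:**
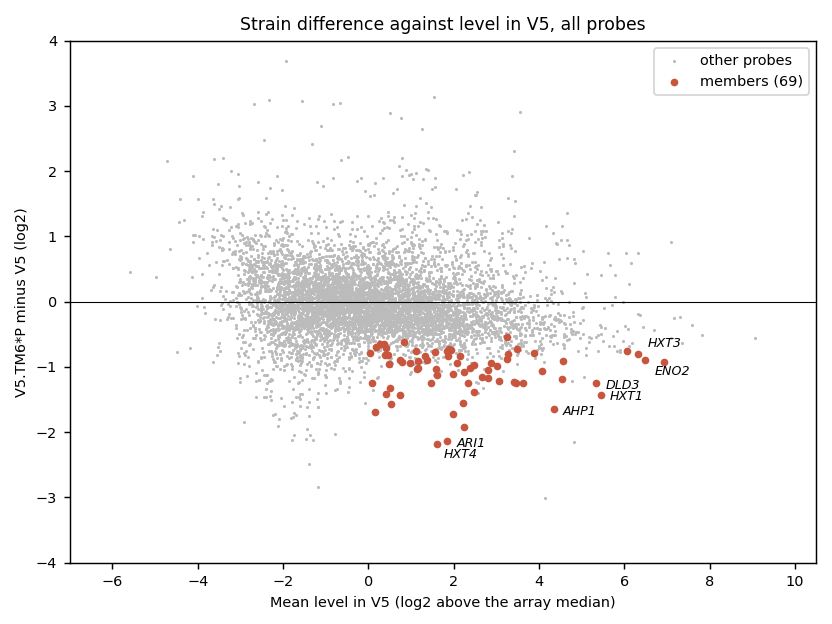
Strain difference (V5.TM6*P minus V5, log2) against the mean level in V5 (log2 above the array median) for 6330 probes, with the 69 members in red and the others in grey. Members lie between -0.55 and -2.18 at V5 levels from 0.03 to 6.93, and 2 non-member probes fall outside the axes.

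The rule had a threshold in the authors' table. The members nearest to it were YPL245W at -0.82, SER2 at -0.81 and YER138W-A at -0.81, and the rows that just missed it were HRI1, VRG4 and YCR025C, each at -0.80. Nothing separates these genes but the threshold. The value of YPL245W is that of 1 of its 2 spots, and both spots together gave -0.63. Of 15 members with 2 spots, 8 entered by 1 spot only, GPX2, IFA38, PEP1, TRS20 and TOS1 among them.

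The 3 hexose transporter probes had the largest median difference of any role, -1.43, but they were far from alike: HXT4 had the largest difference of all members and HXT3 differed by -0.80. HXT4 (YHR092C) measured between 1.29 and 2.05 in V5, with a median of 1.52, and between -1.29 and 0.02 in V5.TM6*P, with a median of -0.54. The strains were far apart in it, by -2.18 or 4.52-fold. HXT1 (YHR094C) ran from 4.15 to 6.22 (median 5.70) in V5 and only from 3.78 to 4.23 (median 4.06) in V5.TM6*P. The V5 samples approached the level of the deleted strain at low glucose, where the sample at 10.5 g/L overlapped it. HXT3 (YDR345C) was bright in both strains, from 6.03 to 6.53 (median 6.35) in V5 and from 5.32 to 5.85 (median 5.47) in V5.TM6*P, with no overlap.

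All 3 genes are deleted in V5.TM6*P, yet signal remained at their probes, and what it reads was not tested. The probes are PCR products of whole ORFs, the HXT genes are close homologs, and TM6* itself contains HXT1 sequence. The spot signal in V5.TM6*P was 26.8 times the local background for HXT3, 12.7 times for HXT1 and 1.57 times for HXT4. The probe of HXT7, which gives the other part of the chimera, is no member: it ran from 6.35 to 8.13 in V5 and from 7.85 to 8.21 in V5.TM6*P. The HXT1 and HXT4 probes were named by a rounded value and their place in the print order, where each was the sole candidate.

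**Figure D2:**
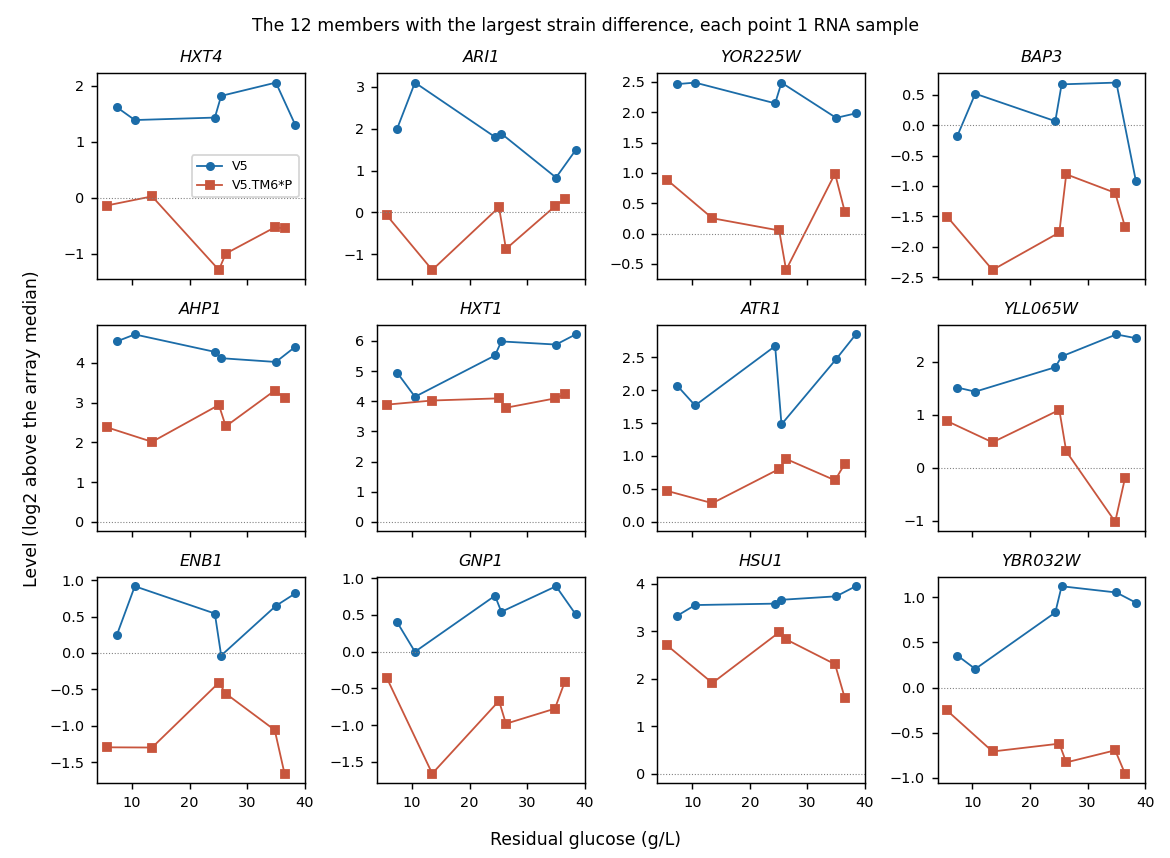
Level (log2 above the array median) against residual glucose (g/L) for the 12 members with the largest difference in the authors' table, each point 1 RNA sample averaged over 2 arrays, V5 as circles and V5.TM6*P as squares. In HXT1 the V5 line falls from 6.22 at 38.4 g/L to 4.15 at 10.5 g/L while V5.TM6*P stays between 3.78 and 4.23.

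Both enolases, which convert 2-phosphoglycerate to phosphoenolpyruvate near the end of glycolysis, were members. ENO1 (YGR254W) ran from 3.54 to 5.07 (median 4.73) in V5 and from 3.17 to 4.37 (median 3.59) in V5.TM6*P. ENO2 (YHR174W), the form used on glucose, ran from 5.85 to 6.95 (median 6.59) and from 5.23 to 6.03 (median 5.56). The differences were -0.91 and -0.90, with 6 of 6 points lower in each, and in both the V5 sample at 10.5 g/L was the lowest of its strain and overlapped V5.TM6*P, as did the ENO1 sample at 7.4 g/L. The enolases have near-identical coding sequences, so their probes cannot be taken as separate measurements.

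In the group of oxidoreductases the strains did not overlap in 6 of 6 members, and the median difference was -1.19. Beside this, 43 of all 69 members and 3.24% of all probes had no overlap. The choice of members all but fixed such counts, so the roles are not ranked by them. ARI1 (YGL157W), an NADPH-dependent aldehyde reductase, ran from 0.83 to 3.10 (median 1.84) in V5 and from -1.37 to 0.32 (median 0.03) in V5.TM6*P. The highest V5 sample and the lowest V5.TM6*P sample both came at sampling point 5, at 10.5 and 13.5 g/L. AHP1 (YLR109W), a thiol peroxidase, was among the brighter members, from 4.02 to 4.71 (median 4.34) in V5 and from 2.01 to 3.30 (median 2.67) in V5.TM6*P. Its difference of -1.65 is 3.14-fold.

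TRX2 (YGR209C), a cytoplasmic thioredoxin that reduces such peroxidases, ran from 2.72 to 3.16 (median 2.83) in V5 and from 1.39 to 2.17 (median 1.96) in V5.TM6*P. GPX2 (YBR244W), a glutathione peroxidase, differed by -1.12, and GRE2 (YOL151W), a methylglyoxal reductase, by -1.04. DLD3 (YEL071W), a D-lactate dehydrogenase outside the mitochondria, was the brightest of the group, from 5.01 to 5.70 (median 5.31) against 3.50 to 4.50 (median 4.17).

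Among the permeases for amino acids and vitamins, BAP3 and GNP1 lay close to background. Their V5.TM6*P signal was 1.35 and 1.5 times it, and that of MCH5 2.17 times. Probes of other roles were as dim, such as ENB1 at 1.42 times. BAP3 (YDR046C), a permease for branched-chain amino acids, ran from -0.92 to 0.70 (median 0.29) in V5 and from -2.38 to -0.81 (median -1.59) in V5.TM6*P. The V5 sample at 38.4 g/L was the low one and lay within the range of V5.TM6*P. GNP1 (YDR508C), a glutamine permease, had a median of 0.52 in V5 and -0.72 in V5.TM6*P, and its V5.TM6*P samples, from -1.66 to -0.36, all lay below V5. MCH5 (YOR306C), a riboflavin transporter, ran from 0.28 to 2.11 in V5 and from 0.09 to 0.83 in V5.TM6*P. ATR1 (YML116W), a multidrug exporter, was clear of overlap, from 1.48 to 2.85 (median 2.27) against 0.28 to 0.95 (median 0.72).

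Metal uptake and handling gave 4 members with a median difference of -1.24. ZRT1 (YGL255W), the high-affinity zinc transporter, ran from 2.88 to 4.19 (median 3.39) in V5 and from 1.63 to 2.64 (median 2.21) in V5.TM6*P, 2.35-fold lower with no overlap. ENB1 (YOL158C), which takes up iron bound to enterobactin, ran from -0.04 to 0.92 against -1.66 to -0.41. ISU2 (YOR226C), a scaffold on which iron-sulfur clusters are assembled, ran from 1.02 to 1.68 (median 1.61) against -0.10 to 0.56 (median 0.20). The copper chaperone gene ATX1 (YNL259C) differed least, by -0.65, and was lower at 5 of 6 points.

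In amino acid and one-carbon metabolism, HIS1 (YER055C), the first enzyme of histidine synthesis, was bright, from 3.92 to 5.20 (median 4.54) in V5 and from 3.19 to 3.51 (median 3.38) in V5.TM6*P. The narrow range of V5.TM6*P (SD 0.13, n = 6) stood beside a wider one in V5 (SD 0.42, n = 6). FOL1 (YNL256W), of folate synthesis, differed by -0.99, MET22 (YOL064C), a phosphatase needed for sulfate assimilation, by -1.02 and SER2 (YGR208W), the last enzyme of serine synthesis, by -0.64. HSU1 (YLL058W), related to cystathionine gamma-synthase, belongs to none of the fixed lists and measured 3.32 to 3.94 in V5 and 1.59 to 2.98 in V5.TM6*P.

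Ribosomal protein genes were represented by 4 probes, all of them one copy of a duplicated gene. RPS9B (YBR189W) was the steadiest, from 3.91 to 4.18 (median 4.10) in V5 and from 2.87 to 3.29 (median 2.94) in V5.TM6*P, with an SD of 0.11 and 0.15. RPS22B (YLR367W), RPS10A (YOR293W) and RPL23B (YER117W) differed by -0.97, -0.75 and -0.74. Because the copies are near-identical, a probe may read both. Another 32 ribosomal protein genes could be named and are no members.

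Ribosome assembly factors followed. UTP9 (YHR196W), of the complex that processes the small-subunit rRNA, ran from 2.53 to 4.02 (median 2.94) against 1.37 to 2.35 (median 1.84). SPB1 (YCL054W), an rRNA methyltransferase, differed by -1.02, BUD27 (YFL023W), a prefoldin-like protein, by -1.03, and PRP43 (YGL120C), an RNA helicase of splicing and ribosome assembly, by -0.70. The PRP43 probe was dim, between -0.26 and 0.85 in V5, and its name rests on rounded values and place.

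The 6 members of the secretory pathway, cell wall and lipids had the smallest median difference of any role, -0.81. MNS1 (YJR131W), a mannosidase that trims glycans in the endoplasmic reticulum, ran from 2.45 to 3.13 in V5 and from 1.47 to 2.16 in V5.TM6*P. TOS1 (YBR162C), a cell wall protein, ran from 3.34 to 4.21 against 2.52 to 3.33, again without overlap. TRS20 (YBR254C), of a vesicle tethering complex, NSG1 (YHR133C), which regulates sterol synthesis, PEP1 (YBL017C), a vacuolar sorting receptor, and IFA38 (YBR159W), a ketoreductase of very-long-chain fatty acids, differed by -0.91, -0.78, -0.71 and -0.83. IFA38 was lower at 5 of 6 points.

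**Figure D3:**
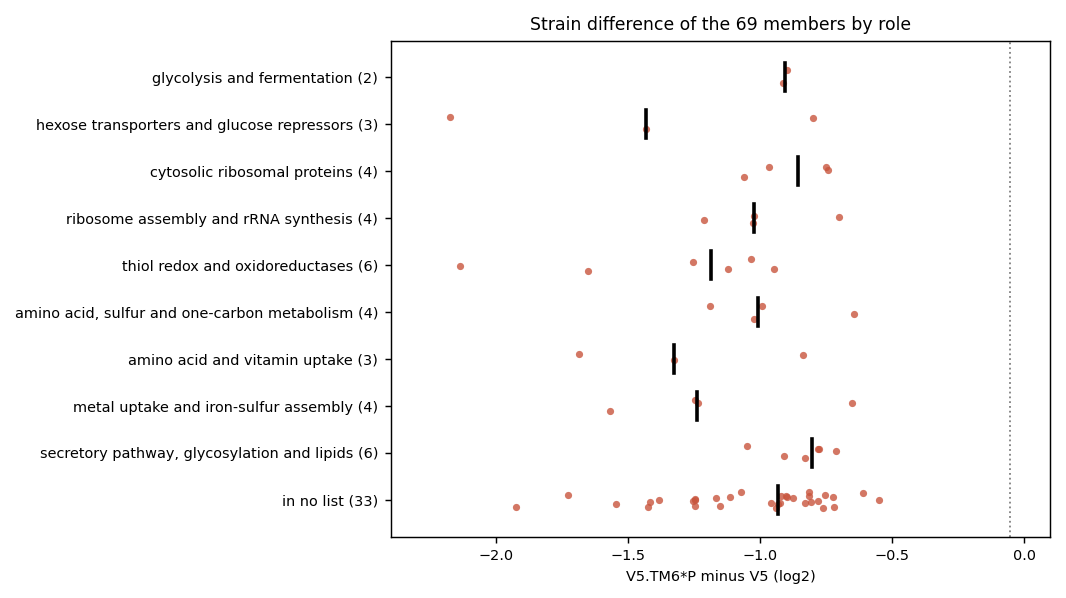
Strain difference (V5.TM6*P minus V5, log2) of each of the 69 members, as points, by role, with the number of members in brackets, a black bar at the median of the role and a dotted line at the median of all 6330 probes, -0.05. The medians of the roles lie between -0.81 and -1.43, and single members of different roles overlap widely.

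The named genes of the same lists that are no members were counted by their limma call between the strains at an adjusted p under 0.05, where 5.4% of all probes were called lower in V5.TM6*P and 6.79% higher. Of 11 glycolytic and fermentative genes 6 were called lower and 2 higher, and PDC1, PDC5 and CDC19, which met the thresholds before they were left out, are among the 6. Of 32 ribosomal protein genes 20 were called lower and 1 higher, and of 6 ribosome assembly genes 4 lower and 0 higher. Of 18 genes of amino acid, sulfur and one-carbon metabolism 9 were called lower and 2 higher, and of 13 secretory, wall and lipid genes 9 lower and 1 higher. The smaller lists gave 1 lower and 1 higher of 2 oxidoreductase genes, 2 lower and 1 higher of 5 metal genes, 2 lower and 3 higher of 5 uptake genes, and 1 lower and 3 higher of 7 hexose transporter and glucose repressor genes. Names come almost wholly from genes that the study tabulated as changed on these samples, and the rule used the same contrast, so nothing about a direction is read from these shares.

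A further 33 members, ATR1 and HSU1 included, are in none of the role lists, and 3 of them have no gene name. Their median difference was -0.93. Among them OAZ1 (YPL052W), an antizyme that controls polyamine synthesis, ran from 1.42 to 3.08 (median 2.46) in V5 and from 0.40 to 1.67 (median 1.10) in V5.TM6*P, and WWM1 (YFL010C), a WW domain protein, from 2.06 to 2.96 (median 2.46) and from 0.12 to 1.39 (median 1.28). TPA1 (YER049W) differed by -0.87 and POR2 (YIL114C), a porin of the outer mitochondrial membrane, by -0.81.

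In all, 6 members are known as dubious ORFs, among them YOR225W, YLL065W and YBR032W of the 12 largest differences. YOR225W ran from 1.91 to 2.49 (median 2.31) in V5 and from -0.60 to 0.99 (median 0.30) in V5.TM6*P. It is the neighbour of ISU2 in ORF number and on the print plate, and both differ without overlap. The probes are double-stranded, so signal from one ORF and from an overlapping transcript of either strand cannot be told apart. YLL065W ran from 1.43 to 2.51 against -1.02 to 1.09 and YBR032W from 0.21 to 1.12 against -0.95 to -0.25.

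Such neighbours occurred 6 times among the named members, with ORF numbers 1 or 2 apart: GDT1 with RPS9B, SER2 with TRX2, HXT4 with HXT1, YLR108C with AHP1, YOL150C with GRE2, and YOR225W with ISU2. Each pair was printed 1 or 2 positions apart on the same plate, so nearness on the chromosome and nearness on the array cannot be told apart. The pairs differed in size: AHP1 by -1.65 and YLR108C by -0.92, TRX2 by -0.95 and SER2 by -0.64.

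Named members lay on all 16 chromosomes, with 9 on chromosome XV and 8 on chromosome II, and on 16 of 17 print plates, the exception being the excluded one. That plate, mostly chromosome X, had a median level between 0.15 and 0.41 in the V5 samples and between 0.08 and 0.18 in V5.TM6*P. The V5 samples at 35.0, 25.5 and 10.5 g/L were the high ones. ILM1, YJR124C and MNS1 are the members of chromosome X printed on another plate. ILM1 (YJR118C) measured 2.43, 2.79 and 3.02 in these 3 V5 samples and 3.08, 2.38 and 2.34 at 38.4, 24.4 and 7.4 g/L. MNS1 measured 2.96, 3.06 and 3.13 against 2.70, 2.57 and 2.45, higher in each of the 3, and YJR124C measured 0.36, 1.31 and 0.84 against 1.38, 1.23 and 0.70. In V5.TM6*P the highest samples were 2.18, 2.16 and 0.33 for ILM1, MNS1 and YJR124C. The part of the raised signal of that plate in these 3 differences was not tested.

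The study searched around start codons, on both the upstream and the coding side, for oligomers of the Hap complex, a CCAAT-binding activator of respiratory genes. Some of its hits for members are printed because they are the sequences at hand for these genes, and a hit may lie inside the ORF. The study did not pursue which factors control its repressed genes, and a role of these oligomers in the lower signal was not tested. Capitals mark a complete CCAAT core, read on either strand.
BAP3: tggATTGG
AHP1: ttgaatgg
ENB1: ttgagtgg
HSU1: ttgagtgg
UTP9: ttgcttgg
OAZ1: ttgatggg
TPA1: ttgtttgg
Among these only the BAP3 oligomer holds the complete core. Such a match is a description and no site. Promoter sequences were not analysed here.

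The change with glucose within a strain is a measure that the rule did not use, apart from the limit that lower at every point sets on how far 2 trends can part. It was tested with limma, with an intercept and a slope on glucose for each strain. No member passed an adjusted p under 0.05 for the slope in V5, where 0.0158% of all probes (1 probe) did. In simulated data this fit recovered 13% of probes that changed by 1 log2 across about the sampled glucose range. Most slopes of that size would therefore be missed. At an unadjusted p under 0.05 there were 16 members, 14 with a signal that was higher at high glucose and 2 the other way, beside 12.2% of all probes. These directions were not counted over all probes, so nothing is read from the split. The slope in V5 was above 0 in 47 of 69 members and in 51.6% of all probes, with a median of 0.05 per 10 g/L over the members and 0.01 over all probes. These 2 shares are counts over genes that share arrays, with no test.

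HXT1 had the smallest p for the V5 slope, at 0.54 ± 0.12 (SE) per 10 g/L and an adjusted p of 0.125 from limma. Its slope in V5.TM6*P was 0.07 ± 0.12 (SE). MCH5, with 0.49 ± 0.14 (SE, adjusted p = 0.180 from limma), and HIS1, with 0.30 ± 0.08 (SE, adjusted p = 0.181 from limma), had their highest V5 samples at 35.0 and 38.4 g/L. ENO2 had a slope of 0.30 ± 0.09 (SE, adjusted p = 0.226 from limma). YKL063C, a gene of unknown function, ran the other way at -0.31 ± 0.10 (SE, adjusted p = 0.215 from limma), from 1.36 at 38.4 g/L to 2.37 at 10.5 g/L. The slope of HXT3 in V5 was 0.01 ± 0.09 (SE). The steepest slope of a member, 0.71 ± 0.26 (SE) for SDD3, rests on the V5 sample at 7.4 g/L, which measured -2.47 where the other 5 lay between 0.11 and 0.87.

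The calls for these slopes depend on the processing. With normexp background correction and quantile normalization, limma called HXT1, MCH5, HIS1, YLL065W and YKL063C (adjusted p = 0.0303, 0.0292, 0.0273, 0.0281 and 0.0289), while 2.35% of all probes were called. With a trend in the variance model HXT1 was called, at an adjusted p of 0.0244, and without dim probes at 0.032.

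In V5.TM6*P no member had a called slope, nor did any probe (0%), and at an unadjusted p under 0.05 there were 5 members beside 5.97% of all probes. The median slope over the members was 0.02 per 10 g/L. No slope differed between the strains at an adjusted p under 0.05, among members or all probes (0%), with 9 members and 8.14% of all probes at an unadjusted p under 0.05. In 7 of those 9 the V5 slope was the larger, a split that was not counted over all probes, so nothing is read from it. The largest gaps between slopes belonged to YLL065W, 0.35 in V5 and -0.44 in V5.TM6*P, and to ARI1, -0.45 and 0.26, with adjusted p-values of 0.444 and 0.568 from limma for the difference.

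**Figure D4:**
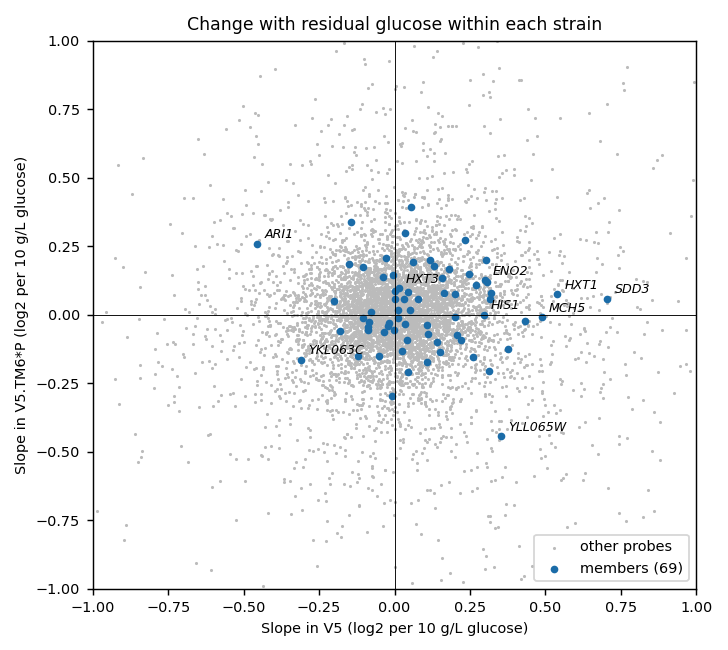
Slope of the level on residual glucose (log2 per 10 g/L) in V5 on the x axis and in V5.TM6*P on the y axis, members in blue and other probes in grey, with 59 non-member probes outside the axes. HXT1, MCH5 and SDD3 lie furthest to the right, and 47 of 69 members lie to the right of 0.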

How the data were processed

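Complementary DNA of 12 RNA samples, labelled with 33P, was hybridized to 24 filter arrays of 9600 spots. Per the methods, the authors scanned the filters and read a median intensity for every spot and for the background around it. The deposited scanner files hold these intensity values before subtraction, and the deposited table of 7477 rows holds background-subtracted intensity on a scale that is not stated (column medians 1.36 to 1.54). Here the background was subtracted, values under 0.1 were set to 0.1 (1.49% of values), log2 was taken, spots of a probe were averaged (1147 probes had 2 spots), each array was centred on its median and both arrays of a sample were averaged. Strains and slopes were fitted with limma 3.58.1 (R 4.3.3), and p-values were adjusted by Benjamini-Hochberg across the 6330 probes. The fit takes samples as separate cultures, which the labels do not settle.

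Files carry no gene names. Of the members 66 were named by recomputing the fold change and base value from the deposited table and matching them to the study's gene tables, 36 by unrounded values, 20 by rounded values alone and 10 by rounded values and place in the print order. Symbols follow the RefSeq table of assembly R64. Members, role lists and naming were chosen with earlier results of these data known. Genes with values are the 12 members with the largest gap in the deposited table, every member of a role list, the 5 with the smallest p for the V5 slope and the 3 rows on each side of the threshold. Further ones (HSU1, OAZ1, WWM1, TPA1, POR2, SDD3, YDR034C-A, YJR124C, ILM1, YLR108C, GDT1, YOL150C, row 1316 and HXT7) were named after their values were seen. The fits were tested on simulated data. Alternatives changed the source, floor, background correction, normalization, spots, variance model, filter, glucose scale, samples and pairing. The print lot alternative was chosen after seeing the data. The planned promoter motif search was not run.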

Additional observations from a re-analysis of the deposited data

Results flagged for a closer look

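In 88 groups of 6 samples (both strains of the 44 members named by rule), 5 had a sample that lay apart from the others, where chance sets apart about 1 in 20 groups. TRX2 had 1 such sample in each strain, V5 at 38.4 g/L with 3.16 (next 2.88) and V5.TM6*P at 5.6 g/L with 1.39 (next 1.88). GRE2 in V5 at 10.5 g/L measured 1.50, above 1.16 for the next. In V5.TM6*P, PRP43 at 25.1 g/L measured -1.25 (next -0.53) and TOS1 at 13.5 g/L measured 2.52 (next 3.07). Each of the 5 samples lay on the side away from the other strain. The choice of members lower at each point favours that side, so nothing is read from it. Nor does it hold over all members, where 9 of 138 groups had such a sample. SDD3 in V5 at 7.4 g/L and YHR214W-A in V5.TM6*P at 34.8 g/L lay towards the other strain.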

How the results depend on the processing

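The median strain difference over the members stayed between -1.03 and -0.94 with each RNA sample left out in turn, and was -0.44 with normexp and quantile normalization, where an offset of 50 is added before the log. Members lower at every remaining point numbered between 62 and 65 when samples were left out, and members without overlap between 43 and 49 (38 without the other print lot). Leaving a sample out cannot lower either count, so these 2 ranges do not test stability. Probes called between the strains numbered 772, 1089 with normexp, 1000 without dim probes, 959 with a variance trend, 936 in the authors' table, 598 without the other print lot, 506 with the sampling point as a replicate block, and between 576 and 727 when samples were left out. Same-numbered samples hardly deviated together (correlations 0.02 to 0.05), which does not settle whether the numbers pair the samples, since differently numbered samples were not set beside them. The block left no slope difference called (0). Probes with a called V5 slope numbered 8 in the authors' table, 6 with a floor of 1, 149 with normexp, 76 with a variance trend, 36 without dim probes, 4 on log2 glucose, 2 without the other print lot, 0 without points 5 and 6, and 0 to 4 with samples left out. Members called for it numbered 5 with normexp, 1 with a variance trend and 1 without dim probes, and 0 with any sample left out. For V5.TM6*P, 2 probes were called with normexp, 1 with a variance trend and 1 on log2 glucose. For the slope difference 2 were called in the authors' table, 1 with normexp, 2 with a variance trend and 2 without dim probes. With samples left out both stayed at 0. The cause of these shifts was not tested. Of 204 alternative values 170 kept within the spread or 1.5 times the count. Dim probes limit the precision, since the V5.TM6*P signal of many members is less than 2 times its background. Among them are the 2 members with the largest differences, HXT4 at 1.57 times and ARI1 at 1.79 times.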
